A study of Mus musculus with 2 samples.

Results

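The mouse lncRNA array carried 1753 probes whose names begin with humanlincRNA or mouselincRNA, out of 60930 probes other than controls. All spots with such a name were taken, and each of these probes had 1 spot on the array. The prefix, the number and the sign in a name divided them into 549 human plus, 555 human minus, 322 mouse plus and 327 mouse minus probes. They stood for 889 numbered domains, 557 human and 332 mouse, and 864 of the domains had a plus and a minus probe. The hippocampus of male C57BL/6 mice (C57 in the labels) aged 16 to 18 months was compared between a surgery group, on day 3 after unilateral nephrectomy, and a control group. The surgery mice had also received ketamine and xylazine as anaesthesia, ropivacaine at the wound and saline afterwards, whereas the control mice had no specific treatment, so the operation and these agents cannot be told apart. The RNA of 3 mice was pooled in each group and hybridized to 1 array, so there was no spread between mice or pools to compute, no test was run, and no value below has a replicate check. With bulk tissue, a change in the cells present and a change in RNA per cell cannot be told apart.

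Long intergenic non-coding RNAs (lincRNAs) are long transcripts without a coding role that come from between the protein-coding genes. Many were first catalogued from chromatin and not from RNA. An active gene carries trimethylated lysine 4 of histone H3 at its promoter and trimethylated lysine 36 along its transcribed body, and domains with this pair of marks outside known genes were taken as lincRNA loci. Such marks do not say which strand is transcribed, and an array can hold a probe for each strand of a domain for that reason. Many lincRNAs are made in low amounts and in few cell types, and the brain expresses a large share of them. The files do not explain the human and mouse prefixes, which are read here as the catalogue a domain came from. The probes with a known position all lie in the mouse genome.

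Probe sequences and positions were taken from the study's list of changed transcripts, which holds 27 of the 1753 lincRNA probes. That list was made from the same arrays, so being in it, or the direction it gives, is no separate evidence. The positions are those of GRCm38, since 439 of the 440 mRNAs of the same list that could be matched by accession overlapped the same gene in that assembly. The 27 probes belong to 26 domains, 15 of them with the human prefix, since both probes of humanlincRNA0566 are listed. The domains lay on 14 chromosomes and had lengths between 3.31 and 53.8 kb with a median of 10.5 kb. Each probe had 60 bases, and 22 of the 27 lay within 200 bases of the 3′ end of the domain on their own strand. The probes of humanlincRNA0566, the 1 domain with both probes placed, sat at opposite ends of it. The following were chosen because the results turn on them: the 3 changed probes that stayed beyond 2-fold in all 7 other settings computed probe by probe, the largest increase and decrease in the last columns of the array, the marked probe that the study tabulated, a pair of strands, and a pair that hold a polyadenylation signal. Capitals mark AATAAA, or TTTATT where it reads on the opposite strand, and lower case marks all else. Whether the word acts as a signal in these transcripts was not tested.
mouselincRNA0065+: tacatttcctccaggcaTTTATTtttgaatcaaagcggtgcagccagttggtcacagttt
humanlincRNA0498-: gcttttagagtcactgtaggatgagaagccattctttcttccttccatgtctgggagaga
humanlincRNA2208+: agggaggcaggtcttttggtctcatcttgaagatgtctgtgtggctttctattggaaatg
humanlincRNA0141+: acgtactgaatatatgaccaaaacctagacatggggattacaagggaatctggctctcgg
humanlincRNA1697-: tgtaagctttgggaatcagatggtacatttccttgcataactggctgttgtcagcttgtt
humanlincRNA0860+: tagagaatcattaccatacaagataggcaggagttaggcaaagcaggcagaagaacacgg
humanlincRNA0566+: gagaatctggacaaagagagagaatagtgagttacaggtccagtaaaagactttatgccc
humanlincRNA0566-: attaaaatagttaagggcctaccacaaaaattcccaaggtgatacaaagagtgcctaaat
humanlincRNA0075+: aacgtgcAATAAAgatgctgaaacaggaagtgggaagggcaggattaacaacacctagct
humanlincRNA0399-: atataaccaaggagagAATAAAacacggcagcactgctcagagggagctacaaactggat

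AATAAA was found in 3 of the 27 sequences (11.1%) and in 47 of the 699 other lncRNA probes of the list (6.72%), while TTTATT was found in 1, mouselincRNA0065+ (3.70%), and in 2.0% of the others. The GC content of the 27 probes had a median of 43.3%, the same as among the 699 other lncRNA probes, and ranged from 35.0% to 45.0%. Of the 26 domains, 22 overlapped no RefSeq gene, and 9 had a protein-coding gene within 20 kb. The domain of mouselincRNA0065 (chr1:90748772-90754796) lay 12.06 kb before Col6a3, which encodes a chain of collagen VI. The domain of humanlincRNA0498 (chr10:119058079-119065691) lay in a gene-poor stretch, 169 kb from the kinase gene Dyrk2 and 133 kb from Cand1. The domain of humanlincRNA2208 (chr1:17178191-17188483) lay 13.9 kb from Gdap1, a gene of mitochondrial dynamics. No probe of these coding genes could be named, and their levels were not analysed here.

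A smaller share of the lincRNA probes than of the other probes was detected. A probe was called measured when its spot passed, on each array, Feature Extraction's calls of a significant signal and of a signal well above background, with no outlier mark. This held for 729 of the 1753 lincRNA probes, or 41.6% with a 95% Wilson interval of 39.3 to 43.9, and for 73.2% of the 59177 other probes. The shares of the 4 name groups were 39.7% (35.7 to 43.9) for human plus, 42.0% (37.9 to 46.1) for human minus, 42.5% (37.3 to 48.0) for mouse plus and 43.1% (37.9 to 48.5) for mouse minus. These intervals overlapped one another, and neither the prefix nor the strand sign set the groups apart beyond counting error. The intervals cover the counting of probes and not the differences between mice.

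**Figure D1:**
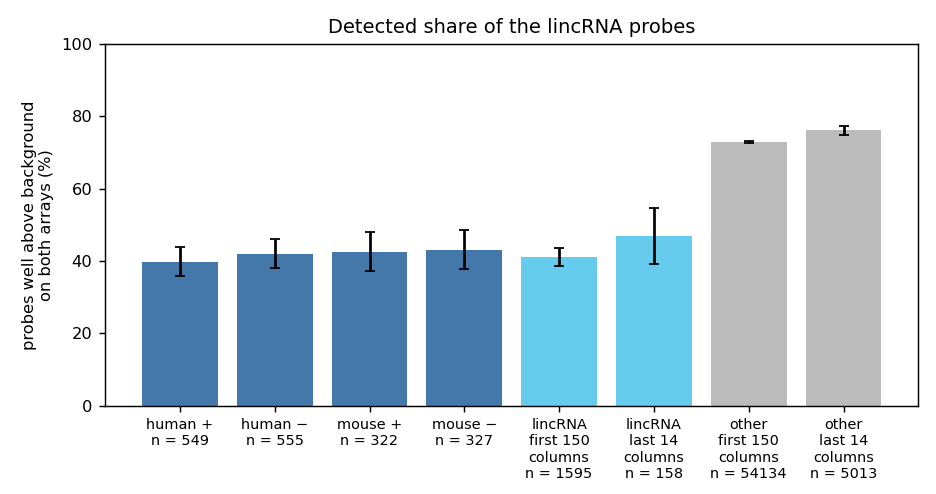
Share of probes well above background on both arrays with no marked spot, in percent, for the 4 groups of lincRNA probes, for the lincRNA probes and the other probes by array column. Error bars are 95% Wilson intervals and n is the number of probes; the lincRNA groups lie between 39.7% and 46.8%, and the other probes at 72.9% and 76.2%.

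Array by array, 47.5% of the lincRNA probes were well above background in control and 44.3% after surgery, beside 77.5% and 74.9% of the other probes. Of the 308 negative control spots, 0 reached this level in control and 2 after surgery (0.649%), and the 0 allows a share of up to 0.974%. The median processed signal of the lincRNA probes was 14.6 in control and 15.1 after surgery, in the scanner's units, and that of the other probes was 104 and 94.4. Signal above this level was therefore recorded for 832 of the lincRNA probes in control and 777 after surgery. With a looser call, positive and significant alone, 63.5% of the lincRNA probes and 86.7% of the others were detected, so the order was kept.

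The signals spanned a wide range. The 6 lincRNA probes with the highest mean normalized signal are given with their control and surgery signals, in an order that also depends on how each sequence hybridizes and is no order of RNA amounts. mouselincRNA0161- had 44237 and 36764. humanlincRNA2330+ had 26572 and 27465, and humanlincRNA2159- had 25334 and 22418. None of these 3 differed by as much as 2 spot errors between the arrays, with log2 ratios of -0.35, -0.02 and -0.25 and an error of 0.20 each. humanlincRNA0318- had 23950 and 22754, mouselincRNA1188- had 18055 and 20929, and humanlincRNA2296+ had 19525 and 13632. The last, in column 155, was the 1 of the 6 that differed by over 2 spot errors, with a log2 ratio of -0.55. The spots around it ran the other way, with a running median of 0.51, and after its subtraction the log2 ratio was -1.06, beyond 2-fold. No RefSeq name or sequence for these 6 probes was analysed here.

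The log2 ratio of surgery over control is given after quantile normalization of all spots other than controls. The spot errors that Feature Extraction reports for both arrays were combined on this scale and stand beside each ratio. They describe the reading of the spots and leave out the mice. Among the 729 measured lincRNA probes the median log2 ratio was 0.08, and 86.3% lay within 0.5 of 0. Among the 43315 other measured probes the median was 0.04 and 81.2% lay within 0.5. The median spot error of a single lincRNA probe was 0.23. By group the median was 0.06 for human plus, 0.08 for human minus, 0.10 for mouse plus and 0.08 for mouse minus.

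At least 2-fold higher after surgery were 19 of the 729 (2.61%), where the share among the other probes was 1.45%. At least 2-fold lower were 4 (0.549%), where the share among the other probes was 1.97%. Without normalization between the arrays the split was 13 higher (1.78%) to 6 lower (0.823%), beside 1.05% and 3.41% of the other probes. The median over the other probes then moved from 0.04 to -0.07. Many of these probes were dim, since 15 of the 19 had a control signal under 100, and the lincRNA probes as a whole were dimmer than the others. The median control signal of all 729 was itself 78.4, and a choice by increase favours probes with a low control signal. The counts were therefore also set beside other probes of like signal. Of probes with a mean normalized signal under 50, 11 of 272 lincRNA probes were higher (4.04%) and 1 was lower (0.368%), beside 2.73% and 2.58% of the others. From 50 to under 200, 5 of 279 were higher (1.79%) and 3 were lower (1.08%), beside 2.20% and 2.72%. At 200 and over, 3 of 178 were higher (1.69%) and 0 were lower, beside 0.606% and 1.34%.

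In the first 150 columns of the array a smaller share of the lincRNA probes than of other probes of like signal differed by at least 2 spot errors. The shares were 9.88% and 15.8% under 50, 7.11% and 24.4% from 50 to under 200, and 9.43% and 20.4% at 200 and over. Ratios above 0 made up 53.9% of the lincRNA probes under 50, 63.2% from 50 to under 200 and 72.3% at 200 and over, compared with 52.3%, 51.8% and 56.1% of the others.

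**Figure D2:**
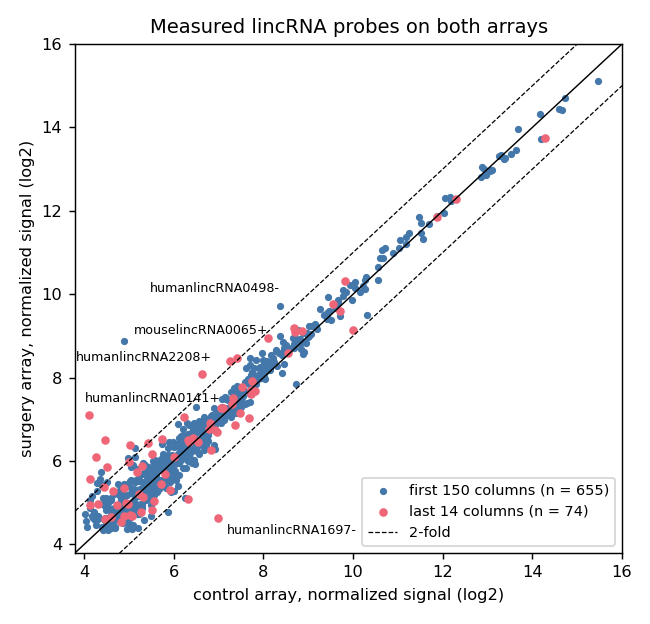
Normalized signal on the log2 scale of the 729 measured lincRNA probes on the control array (horizontal) and the surgery array (vertical), with the line of equality and dashed lines at 2-fold. Of the 19 higher probes, 15 had a control signal under 100, where the median over all 729 was 78.4. A mean signal of 200 or more was found for 3 of the changed probes, all of them higher.

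The position on the array moved with the ratio. The last 14 columns held 158 of the 1753 lincRNA probes and 74 of the 729 that were measured. In them 10 lincRNA probes had increased at least 2-fold (13.5%) and 2 had decreased as much (2.70%), and among the other probes there these shares were 8.3% and 3.2%. In the first 150 columns, 9 of 655 were higher (1.37%) and 2 were lower (0.305%), beside 0.788% and 1.85% of the other probes. The last columns thus held 10.2% of the measured lincRNA probes and 12 of the 23 that changed. The part of the position on the array in these ratios was not tested, and the columns are given apart below.

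**Figure D3:**
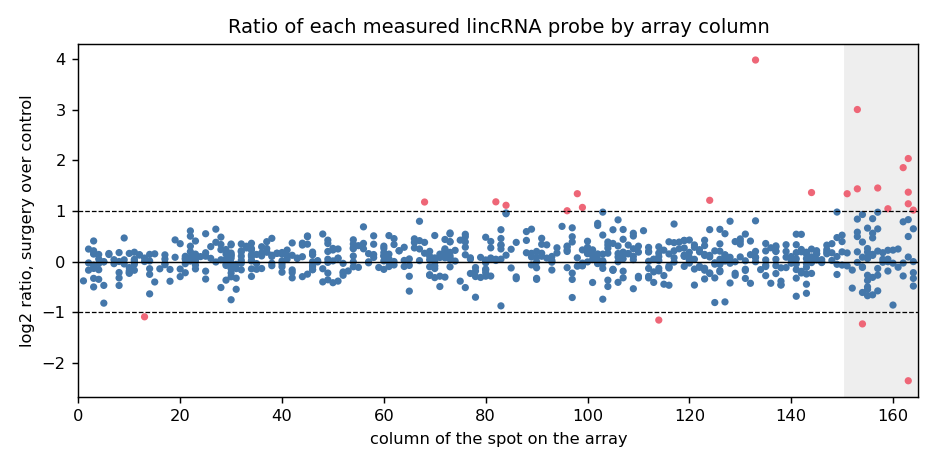
Log2 ratio of surgery over control (vertical) of each of the 729 measured lincRNA probes against the column of its spot on the array (horizontal). The shaded band marks the last 14 columns and red points are changed at least 2-fold. Of the 23 red points, 12 lie in the band, which holds 74 of the 729 probes.

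In the first 150 columns, mouselincRNA0065+ stood far above the rest. Its signal went from 30.8 in control to 444 after surgery, with a log2 ratio of 3.98 ± 0.26 (spot error) or 15.7-fold. The next were humanlincRNA1972+, with 21.5 and 50.8 and a log2 ratio of 1.36 ± 0.32, and humanlincRNA0498-, with 353 and 799 and 1.34 ± 0.20. humanlincRNA0498- was the brightest of all changed lincRNA probes, so that its change had the smallest error. The other 6 higher probes were humanlincRNA1152+ (1.21), humanlincRNA2164- (1.18), mouselincRNA0713+ (1.18), mouselincRNA1244- (1.11), mouselincRNA0892- (1.07) and mouselincRNA0325- (1.003, log2 ratios). Their control signals were between 20.1 and 36.4 and their surgery signals between 37.3 and 75.4, with errors from 0.27 to 0.35. The lower probes were mouselincRNA1425+, with 80.3 and 33.1 and a log2 ratio of -1.15 ± 0.27, and humanlincRNA1929-, with 61.8 and 26.7 and -1.09 ± 0.31.

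In the last 14 columns the largest increase was that of humanlincRNA0141+, with a control signal of 17.8, a surgery signal of 130 and a log2 ratio of 3.00 ± 0.45. The domain lies 25.7 kb before Cdc73, a gene of the polymerase-associated PAF complex. mouselincRNA0392- had signals of 23.0 and 86.7 (2.03 ± 0.34), and its domain overlaps the annotated lncRNA gene Gm40929. humanlincRNA0663+ had 19.8 and 65.6 (1.85 ± 0.34), and here the nearby spots were higher too, with a running median of 1.12. humanlincRNA2208+ had 104 and 257 (1.45 ± 0.21) and humanlincRNA0498+ had 18.1 and 45.2 (1.44 ± 0.38). The other 5 higher probes had log2 ratios between 1.02 and 1.37. Lower were humanlincRNA1697-, with 133 and 23.9 and a log2 ratio of -2.35 ± 0.33, and humanlincRNA0531+, with 83.3 and 32.6 and -1.23 ± 0.27. After subtraction of the running median over nearby spots, 7 of the 12 changed probes of these columns and 7 of the 11 in the other columns still changed at least 2-fold.

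At the threshold, mouselincRNA0325- (1.003) and humanlincRNA0055- (1.02) were just inside 2-fold, and humanlincRNA0938- and humanlincRNA0919+ were just outside (both 0.98). The spot errors of these probes were between 0.29 and 0.37, so that the threshold did not separate them. The processing moved the dim probes most. Of the 23 changed probes, 17 changed at least 2-fold without normalization between the arrays, 9 in the authors' normalized table, 5 with the median pixel of the spots in place of the processed signal and 3 with the normexp background correction. The median pixel still holds the background, which lowers a ratio of dim spots by construction. mouselincRNA0065+, humanlincRNA0498- and humanlincRNA2208+ were the 3 that remained in all 7 settings computed for single probes, which leave out the other filters and the parts of the array. Their log2 ratios ranged over all settings from 2.37 to 4.01, from 1.15 to 1.36 and from 1.01 to 1.48. For humanlincRNA0141+ the normexp value was 0.72 and the median pixels were 63.0 and 118.

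**Figure D4:**
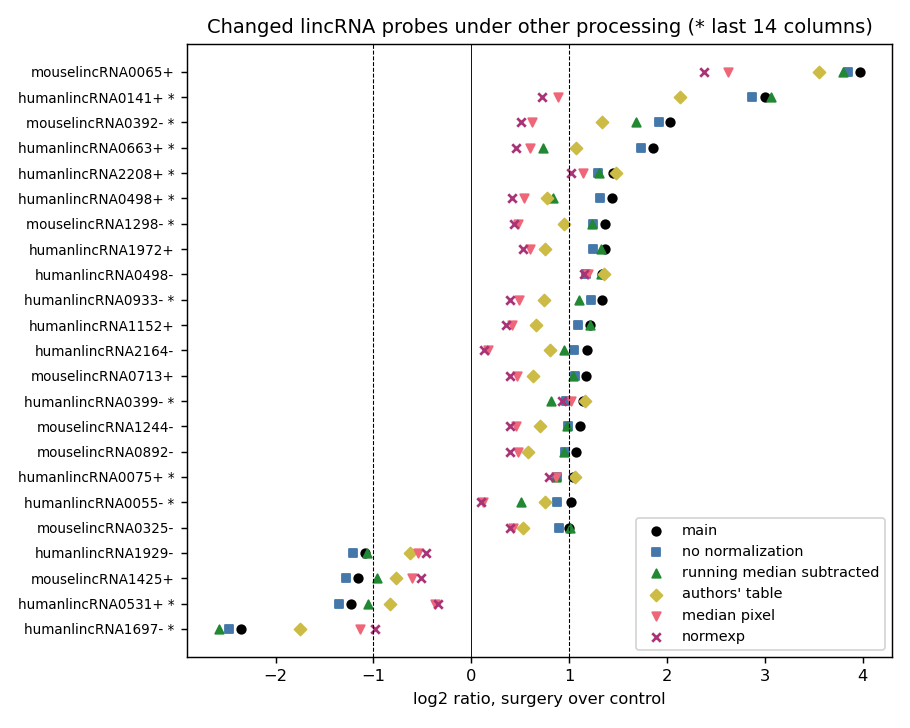
Log2 ratio of surgery over control (horizontal) of the 23 lincRNA probes changed at least 2-fold, each under the main processing and 5 others; dashed lines mark 2-fold and asterisks mark the last 14 columns. The black points all lie outside the dashed lines by choice, and mouselincRNA0065+, humanlincRNA2208+ and humanlincRNA0498- have all 6 points outside.

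Another 2 lincRNA probes had a spot marked as non-uniform and were left out of the counts. humanlincRNA0860+, in column 160, went from 36.8 to 447, which with the spot kept is a log2 ratio of 3.74 ± 0.27. The log2 ratio of its median pixels, 85.0 and 398, was 2.23. Its domain (chr8:119649582-119656541) lay between the potassium channel gene Kcng4 at 13.9 kb and Wfdc1 at 9.82 kb. humanlincRNA0090+, in row 302 and column 31, read 19776 in control and 9.22 after surgery, where it was not well above background. Its local background was marked as non-uniform on the control array too.

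Of the remaining probes, 874 were not well above background on either array (49.9% of the 1753), beside 20.9% of the other probes. On the control array alone there were 101 (5.76%, beside 4.25%), and on the surgery array alone 47 (2.68%, beside 1.60%). For those on 1 array alone the change is given as a lower bound. This could be computed for all 47 higher probes and for 79 of the 101 lower ones. It sets the brighter normalized signal over the dim probe's own or, where that is smaller, over the lowest one called well above background on the dim side, which was 15.7 for control and 18.9 for surgery. The bound was at least 2-fold for 21 of the 47 higher probes (44.7%) and for 8 of the 101 lower ones (7.92%). In the last 14 columns lay 14 of the 21 and 3 of the 8. Among the other probes it was at least 2-fold for 33.5% of those on the surgery array alone and for 7.84% of those on the control array alone. Of these other probes, 162 of 316 higher and 41 of 197 lower ones lay in the last 14 columns. The 5 largest bounds belonged to humanlincRNA1610+, at least 7.58-fold lower (151.3 and 5.80, column 159), humanlincRNA0891+, at least 7.29-fold higher (7.89 and 109, column 156), humanlincRNA1249+, at least 7.23-fold higher (17.5 and 116, last column), humanlincRNA1365+, at least 6.86-fold higher (13.9 and 103, last column), and humanlincRNA0755+, at least 6.78-fold lower (135 and 3.81, column 147). All but the last of these 5 lay in the last columns. For humanlincRNA0891+ the spots around it were higher too, with a running median of 0.99. These bounds hold for the processed signal. In the authors' normalized table the log2 ratios of the 3 higher probes were 2.43, 1.97 and 1.96 in the same order, which is under their bounds, and those of humanlincRNA1610+ and humanlincRNA0755+ were -2.94 and -2.92. With the median pixels these 5 log2 ratios lay between 0.74 and 1.39 for the higher probes and were -1.38 and -1.58 for the lower ones. The domain of humanlincRNA0891 (chr11:102159183-102162493) ends next to the coding gene Lsm12 and lies 2.76 kb from Tmem101, so its probe is close to annotated coding genes.

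The plus and minus probes of a domain differ in sequence, and their levels were therefore not compared, but their detection and their ratios can be set side by side. Of the 864 domains with both probes, both were measured in 168 (19.4%), the plus probe alone in 185 (21.4%), the minus probe alone in 202 (23.4%) and neither in 309 (35.8%). Where the plus probe was measured, so was the minus probe in 47.6% of 353 domains, and where it was not, in 39.5% of 511. No test was run on these shares. Both probes were measured in 19.4% of human and 19.6% of mouse domains, the plus probe alone in 20.3% and 23.3%, the minus probe alone in 22.7% and 24.6%, and neither in 37.7% and 32.5%.

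Over the 168 domains the log2 ratios of the plus and minus probes did not run together, with a Pearson r of -0.05 and a Spearman rho of -0.05. This is a description across probes of the same arrays and carries no test. In 119 of the 168 domains both ratios differed by under 0.5. The median absolute difference was 0.32, and the median spot error of such a difference was 0.35. The error is a standard-deviation measure and not a median absolute value, so these values cannot be set against each other directly. Of all measured lincRNA probes, 2.61% were higher and 0.549% lower, so unrelated strands would seldom both change. A count of domains with 1 changed strand is therefore no sign of a change particular to that strand. At least 1 probe changed 2-fold in 15 domains, and in 14 of them it was 1 strand alone. The exception was humanlincRNA0498, where both strands were higher after surgery, the minus probe from 353 to 799 in column 98 and the plus probe from 18.1 to 45.2 in column 153. After the running median of the spots around it was taken off, the log2 ratio of the minus probe was 1.33 and that of the plus probe 0.84, so that the plus probe no longer passed 2-fold. It did not pass in the authors' normalized table either, at 0.77.

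**Figure D5:**
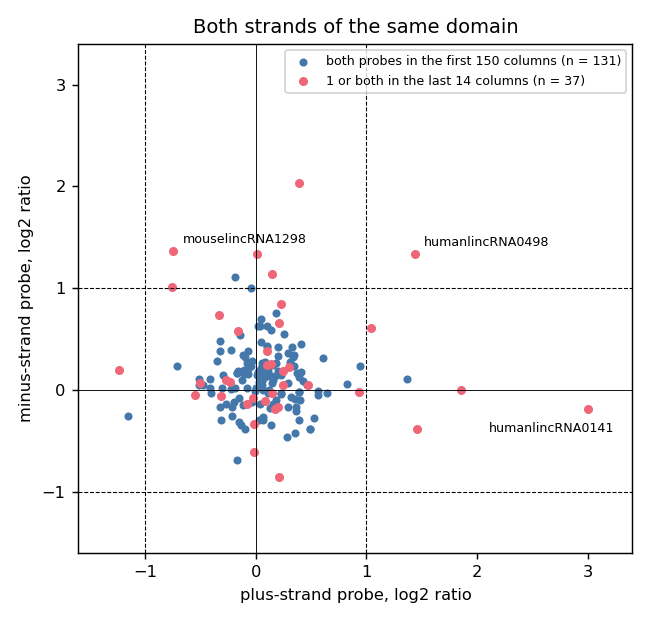
Log2 ratio of surgery over control of the plus-strand probe (horizontal) and of the minus-strand probe (vertical) in the 168 domains with both measured; dashed lines mark 2-fold. The points form a cloud around 0 without slope (r = -0.05), and humanlincRNA0498 is the 1 domain beyond 2-fold on both axes.

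The largest differences between strands were in humanlincRNA0141, with a log2 ratio of 3.00 for plus and -0.18 for minus, and in mouselincRNA1298, with -0.74 for plus and 1.37 for minus. In humanlincRNA0663 they were 1.85 and -0.00033, in humanlincRNA2208 1.45 and -0.39, and in humanlincRNA0055 -0.75 and 1.02. In all 5 of these domains the higher probe lay in the last 14 columns and the other in the first 150. humanlincRNA0566 had a sequence for both strands, shown above, and both probes were well above background after surgery alone. The plus probe, in column 154, went from 3.56 to 28.3, at least 1.86-fold higher, and the minus probe, in column 163, from 13.5 to 47.5, at least 3.16-fold higher.

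The probes most like these by name were 83 whose names begin with MM9LINCRNAEXON, of which 44 were measured (53.0%, 42.4 to 63.4). This share lay between those of the lincRNA probes and of the other probes. Its interval overlapped that of the lincRNA probes (39.3 to 43.9) only narrowly and did not hold their share of 41.6%. No test was run on this difference. Their median log2 ratio was 0.10, and 0 of the 44 changed at least 2-fold, with a highest value of 0.76. Among the other probes 1.45% were higher and 1.97% lower, so few or none would be called among 44. This count leaves out 5 of the 83 that were well above background on the control array alone and 3 on the surgery array alone. The study's list also held 24 other probes to domains of the same catalogue, of which 15 were measured, 7 at least 2-fold higher and 6 lower. The 24 include MM9LINCRNAEXON11641- (17.5 and 128) and MM9LINCRNAEXON11727+ (66.9 and 4.32), which are also among the 83 above. Neither was measured on both arrays. That list was selected for change, so these counts show nothing of the catalogue. For 1 of these, a probe to humanlincRNA1204 (838 and 315, log2 ratio -1.24 ± 0.20), the same domain had a lincRNA probe, humanlincRNA1204+, and its signals of 11.6 and 4.21 were not well above background.

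The 2 arrays shared a slide and a scan, and 76.4% and 73.8% of their spots were well above background. Of 28 marker genes of hippocampal and neighbouring tissue, 7 were matched to a probe here. The names come from the study's list of changed transcripts, so these 7 were selected for change. A blood marker among the 28 also appears among the changed mRNAs that the paper tabulates, and it was not matched here. All 5 meningeal markers were higher on the surgery array, with log2 ratios between 1.04 and 3.07, and their summed signal was 5064 in control and 15332 after surgery. The probes of Foxc2 and Aldh1a2 among them lay in the last 14 columns. The log2 ratio was 1.35 for Camk2a, a kinase of excitatory neurons. Its probe was dim, with signals of 48.5 and 111 where the medians over all spots other than controls were 98.8 and 89.7. The part of the tissue taken along in the lincRNA ratios was not tested.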

How the data were processed

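Hippocampal RNA pooled from 3 mice per group was labelled by random priming after rRNA removal and hybridized to 1 one-colour Arraystar array per group. The deposited scanner files hold intensity values that the authors read with Agilent Feature Extraction 11.0.1.1, which had corrected the background within each array. The authors also deposited a table of log2 values, quantile normalized in GeneSpring GX, which was used as an alternative. The paper's methods say the assay was repeated, and 1 array per group was analysed here. The precision is limited by the number of arrays.

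The log2 processed intensities of all 61500 spots other than controls were quantile normalized here, repeated probes were averaged, and marked spots were left out. Probes named in the text were the largest changes in the first 150 and in the last 14 columns, the brightest, the largest bounds, those the study tabulated, domains whose strands changed together or differed most, and those next to the threshold. humanlincRNA0075+, humanlincRNA0399- and humanlincRNA0566 were chosen for their sequences after their values were seen. Members, lists and alternatives were chosen with earlier results of these data known. The alternatives were no normalization, 75th-percentile scaling, the median pixel, limma's normexp with an offset of 50, marked spots kept, other filters on dim probes, parts of the array, a running median of spots up to 5 rows and 2 columns away, the authors' table, a limit of 2 spot errors and other calls of detection. Since the files hold no mean signal, normexp was run on the median signal. Ranges of signal were added after the values were seen. The value of 1 marker gene is not reported here. The code was tested on simulated data. Python 3.11.15, numpy 2.4.6, pandas 2.3.3, scipy 1.17.1, matplotlib 3.10.9, R 4.3.3 and limma 3.58.1 were used.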

Additional observations from a re-analysis of the deposited data

How the results depend on the processing

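The count of lincRNA probes at least 2-fold higher, 19, and of those lower, 4, depended most on how dim spots were treated. The counts were 4 and 1 for median pixels and 3 and 0 after normexp. They were 142 and 93 without the filter on dim probes, and 3 and 0 with the stricter filter. In this order the higher shares were 0.549%, 0.412%, 8.11% and 1.80%, beside 0.476%, 0.395%, 3.79% and 0.581% of the other probes. The lower shares were 0.137%, 0%, 5.31% and 0%, beside 0.559%, 0.439%, 4.49% and 1.30%. The counts were 9 and 2 in the first 150 columns alone and 10 and 2 in the last 14 columns alone, which hold fewer probes. The running median over nearby spots left 11 higher, and the authors' normalized values gave 8 and 1. In the ranges of signal chosen after the values were seen there were 11 and 1 under 50, 5 and 3 from 50 to under 200, and 3 and 0 at 200 and over. The domain with both strands changed was lost, with a count of 0, on the median pixel, under normexp, and in the first 150 or last 14 columns alone, since its probes lie in different parts of the array. The plus probe of this domain was also under 2-fold in the authors' normalized values, at 0.77, and with the running median subtracted, at 0.84. The share of lincRNA probes measured was 46.8% in the last 14 columns, outside the interval of the main value. The median log2 ratio of the lincRNA probes, 0.08, was -0.05 without normalization between the arrays and between 0.02 and 0.13 in the other settings. Its difference from the other probes, 0.04, lay between -0.0022, in the last 14 columns, and 0.081. Over the 23 changed probes and 7 other settings, 0 of 161 values had the opposite sign and 67 were under 2-fold. Keeping marked spots, 1 of these 7 settings, left all 23 values as they were by construction. No replicate could be left out with 1 array per group, and the cause of the differences between settings was not tested. At low signal the spot error limits what these arrays can show. The median pixel and normexp settings changed the measure of the spot as well as the background, and the offset of 50 lowers ratios of dim spots by construction.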

Other observations

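Among the 27 lincRNA probes with a known sequence, a short word recurred that was not looked for in advance. Out of the 1024 words of 5 letters searched, GAATC was picked. It was in 9 of the 27 sequences (33.3%), beside 27 of the 699 other lncRNA probes of the list (3.86%). GAATC was picked after the sequences had been read and from many words, a choice that favours a large gap. The shares are therefore a description. Its complement GATTC was in 0 of the 27 and in 6.15% of the others. Of the 18 listed lincRNA probes in the last 14 columns, 8 held GAATC, compared with 8 of the 315 other listed lncRNA probes there (2.54%), and in the first 150 columns it was in 1 of 9, mouselincRNA0065+. Sequences of the lincRNA probes outside the list were not analysed here.

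Of the coding genes next to the 26 domains, 2 had a probe that could be named. A gene could be named only through the study's list of changed transcripts, which also gave the domains. Genes and domains were thus both selected for change, and their directions say nothing of neighbouring genes in general. Eno1, which encodes the glycolytic enzyme enolase, lies 10.6 kb after the domain of mouselincRNA1170. Its probe was at 103 in control and 227 after surgery (log2 ratio 1.29 ± 0.21, last column), while mouselincRNA1170-, in column 153, was at 60.0 and 13.0, at least 3.02-fold lower. Nkain3 lies 185 kb before the domain of humanlincRNA2197, and both probes were well above background on the control array alone, Nkain3 with 67.0 and 13.4 and humanlincRNA2197- with 22.3 and 4.11.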
